A study of Mus musculus with 3 samples.

Results

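The genes of the fibroblast growth factor (FGF) pathway were read on 3 microarrays of whole mouse embryos. They were chosen by symbol, through the RefSeq accession of each probe: all symbols made of Fgf and a number, the receptor genes Fgfr1 to Fgfr4, the Spry and Spred inhibitor genes, the phosphatase gene Dusp6 and the ETS factor genes Etv4 and Etv5. The reference table holds 36 such genes, of which 34 had a probe, out of 16358 genes with a probe on the array. Fgf4 and Fgf6 were not analysed here.

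Each array held RNA of 1 pool of 3 whole embryos of mixed background, labelled with Cy3. The triple null group was MafF-/-:MafG-/-:MafK-/- at E10.5. The remaining groups kept both copies of Mafg (MafF-/-:MafG+/+:MafK-/-, called MafG-intact), with one collected at E10.5 and the other at E9.5. Every group therefore lacks MafF and MafK, and no wild-type embryo was among these arrays. Each group was a single array, so no difference has a replicate error, none was tested, and "higher" and "lower" describe these arrays. In whole embryos, fewer cells of a type and less RNA per cell cannot be told apart.

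Secreted FGFs bind receptor tyrosine kinases (FGFR1 to FGFR4) together with heparan sulfate chains, and the receptors signal through FRS2 and RAS to the kinase ERK. ERK signalling turns on ETV4, ETV5, Sprouty and Spred proteins and the ERK phosphatase DUSP6, and Sprouty, Spred and DUSP6 in turn damp the signal. In the midgestation embryo, FGFs act in the tail bud, limb bud, pharyngeal arches, midbrain-hindbrain border, heart and inner ear. The small Maf proteins are bZIP partners of the CNC and BACH factors.

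A level is the log2 processed intensity of a gene minus the 75th percentile of its array, averaged over the gene's probes, so a difference of 1 is 2-fold. Levels of different genes come from different probes and are not set against each other. Of the 34 genes, 25 were well above background on all 3 arrays, 2 (Fgf11 and Fgf20) on some arrays, and 7 on none: Fgf1, Fgf2, Fgf16, Fgf21, Fgf22, Fgf23 and Spry4. The 27 with signal stand among 13184 genes above background on at least 1 array. Probes printed 10 times gave a median SD between spots of 0.05 at levels over 0, 0.07 at levels from -4 to -2, 0.14 from -6 to -4 and 0.30 under -6, an error of printing and scanning that leaves out the spread between embryos.

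**Figure D1:**
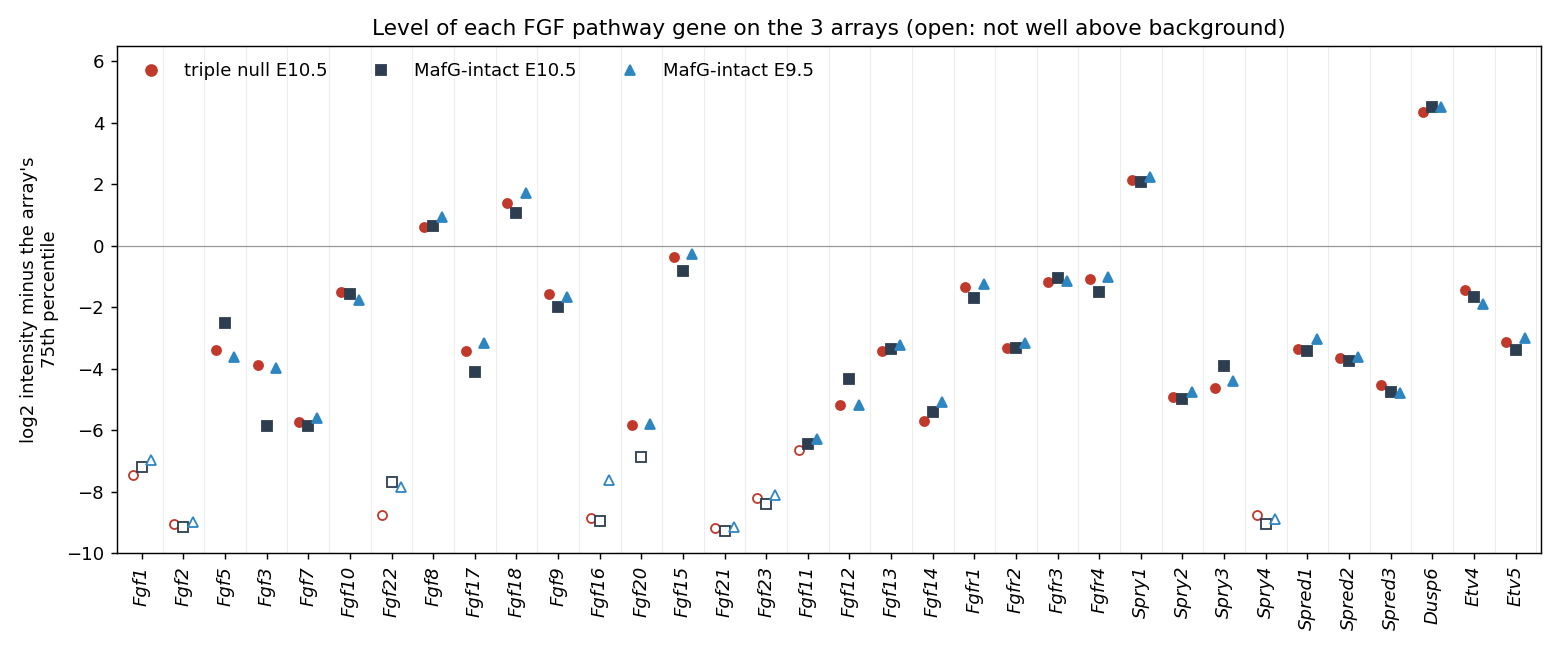
Level of each of the 34 FGF pathway genes (log2 intensity minus the array's 75th percentile) on the triple null array and the MafG-intact arrays of E10.5 and E9.5, 1 point per array, open where the gene was not well above background. Within each gene the 3 points mostly lie close together; Fgf3 stands apart, with a MafG-intact E10.5 level of -5.88 beside -3.89 and -3.97.

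The arrays were of similar quality: from 69.1% to 70.4% of probes were well above background, and all lay on slide 1. Mafg, the gene that separates the genotypes, gave no signal above background in the triple null pool, a level at least 173-fold under that of the MafG-intact E10.5 pool. The pools also differed in sex: only the MafG-intact E10.5 pool had Xist signal above background, and only the other pools had it for Ddx3y, Eif2s3y, Kdm5d and Uty, which are Y-linked. Both comparisons with the MafG-intact E10.5 pool therefore also compare pools of different sex, and sex and group cannot be told apart in them. The 3 comparisons share arrays pairwise, so a gene that lay apart on 1 array appears in 2 of them.

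Between the triple null and the MafG-intact pool at E10.5, 1 of 25 FGF pathway genes was higher by 2-fold or more in the triple null and none was lower by that much, beside 0.982% and 4.47% of all 12529 genes (5.45% either way). At 1.5-fold, Fgf3 and Fgf17 were higher, beside 4.12% of all genes, and Fgf5, Fgf12 and Spry3 were lower, beside 9.72%, which made 5 of 25 either way beside 13.8%. With normexp background correction 1 of these 5, Fgf3, stayed past 1.5-fold. This correction adds an offset of 50 to every spot. It shrank the differences of these 5 genes, but some small differences of dim genes grew. Fgf7 went from 0.12 to 0.27 and Spry2 from 0.07 to 0.20. Fgf14 turned from -0.29 to 0.21, and the median over all genes rose from 0.06 to 0.11. The part of this upward shift in the loss of Fgf5, Fgf12 and Spry3 was not tested. Over all genes normexp lowered the 2-fold counts from 123 higher and 560 lower to 54 and 213. The share of all genes past 1.5-fold with normexp was not counted. The median difference was 0.08 over the 25 genes and 0.06 over all genes.

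Between the MafG-intact pools, Fgf5 was higher at E10.5 by 2-fold or more, beside 4.12% of all 12514 genes, and Fgf3 was lower, beside 1.07%, so that 2 of 26 genes were apart either way beside 5.19%. At 1.5-fold, Fgf5 and Fgf12 were higher, beside 9.26% of all genes, and Fgf3, Fgf17 and Fgf18 were lower, beside 4.33%, or 5 of 26 either way beside 13.6%; with normexp 4 of these 5 stayed past 1.5-fold and Fgf12 did not. The median was -0.19, against -0.05 over all genes.

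Between the triple null pool and the MafG-intact E9.5 pool, none of 26 genes was 2-fold apart, beside 0.256% of all 12521 genes higher and 0.527% lower (0.783% either way). Past 1.5-fold, none was higher, beside 1.38%, and Fgf14 alone was lower, beside 1.65% (3.03% either way), which with normexp it was not. In this last pair the median was -0.09, against 0.01 over all genes. The shares of FGF pathway genes past either fold were near the background of each comparison.

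**Figure D2:**
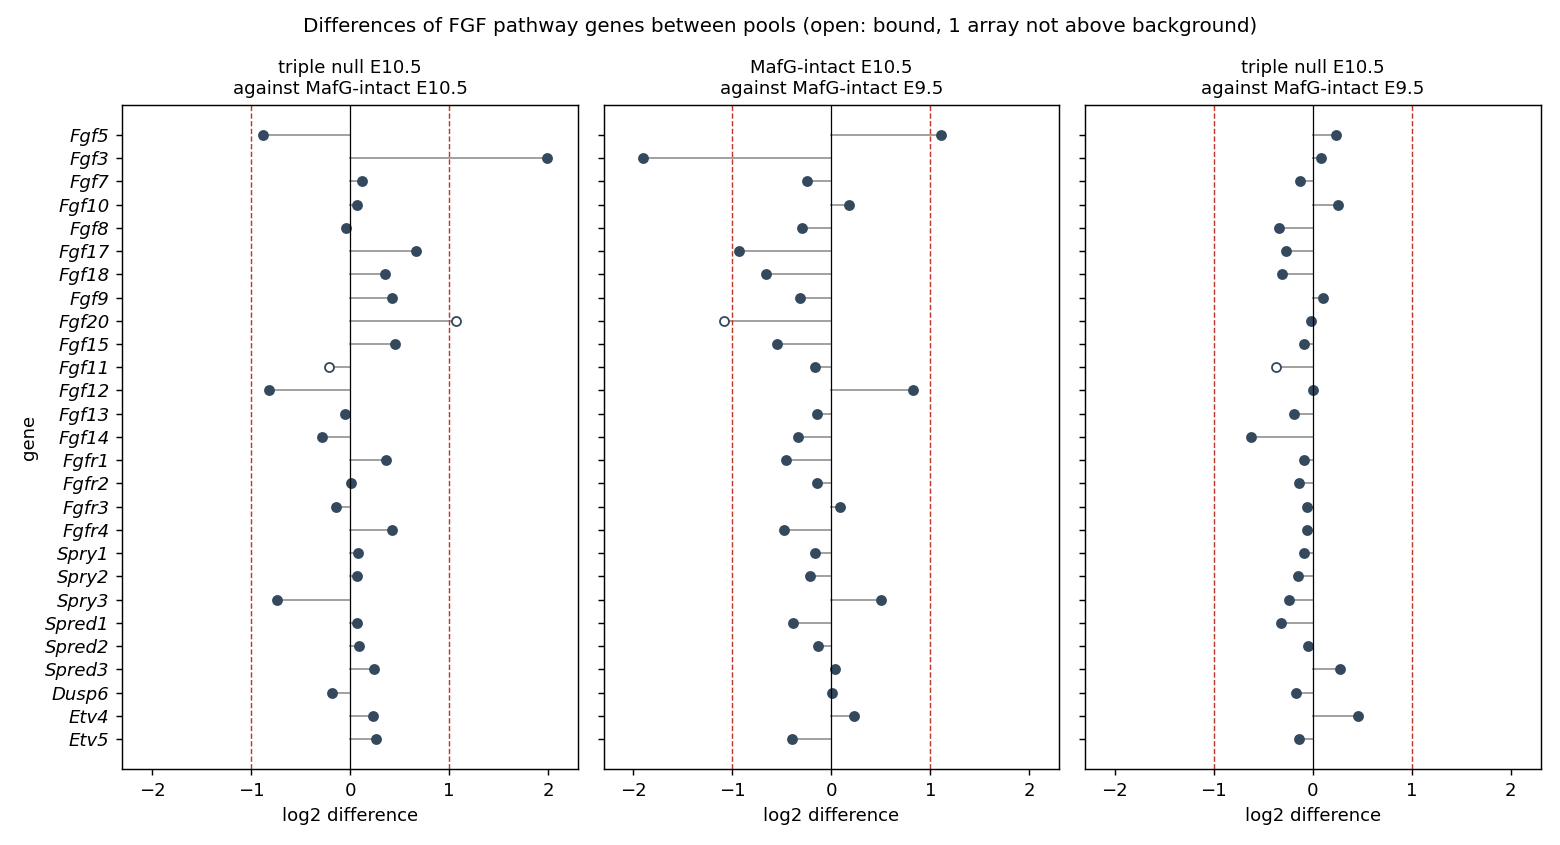
Log2 difference of each of the 27 FGF pathway genes above background on at least 1 array in the 3 comparisons, with dashed lines at 2-fold and open points for bounds. Fgf3 is the farthest point in the first and second panels, at 1.99 and -1.90, and no point reaches 2-fold in the third.

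Fgf3, a ligand of the FGF7 subfamily used in the tail bud, hindbrain and inner ear, was the gene farthest apart. Its level was -3.89 in the triple null pool, -5.88 in the MafG-intact E10.5 pool and -3.97 in the MafG-intact E9.5 pool. The MafG-intact E10.5 pool alone was low, and the other pools differed by 0.08, beside a median SD between spots of 0.07 at their level. Fgf3 was 3.96-fold higher in the triple null than in the MafG-intact pool at E10.5, and only 0.128% of all genes lay as far in that direction. Between the MafG-intact pools it was 3.74-fold lower at E10.5, with 0.224% of genes as far. Fgf3 was read by 1 probe with 1 spot, and normexp background correction shrank the differences to 1.03 and -1.0.

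The other ligands of the FGF7 subfamily act mainly from mesenchyme on epithelium. Fgf7, the keratinocyte growth factor gene, had levels of -5.73, -5.85 and -5.60 in the triple null pool and the MafG-intact pools of E10.5 and E9.5, the order used from here on. Fgf10, which starts limb and lung buds, had levels of -1.50, -1.57 and -1.75. Fgf7 spanned at most 1.18-fold over the pools and Fgf10 at most 1.19-fold. Fgf22 was not above background on any array.

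Fgf5, of the FGF4 subfamily and best known as a brake on hair growth, lay the other way from Fgf3. Its levels were -3.39, -2.51 and -3.62, so the MafG-intact E10.5 pool alone was high. It was 2.16-fold higher in that pool than at E9.5, as far as 3.45% of genes, and 1.84-fold lower in the triple null than in the MafG-intact pool at E10.5. The triple null and E9.5 pools differed by 0.23. Fgf5 has 1 probe, and with normexp its difference was 0.71 between the MafG-intact pools, under 2-fold, and -0.49 between the genotypes at E10.5, under 1.5-fold.

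The FGF8 subfamily (Fgf8, Fgf17 and Fgf18) patterns the midbrain-hindbrain border and tail bud. The Fgf17 level was -3.43, -4.10 and -3.16. The MafG-intact E10.5 pool was again the lowest, 1.59-fold below the triple null and 1.91-fold below E9.5. Quantile normalization took the latter difference past 2-fold, and normexp shrank the differences to 0.52, under 1.5-fold, and to -0.71. Fgf18 had levels of 1.41, 1.05 and 1.71, a difference of -0.66 between the MafG-intact days and of 0.36 between the genotypes at E10.5. Fgf8, the signal of the apical ridge of the limb and of the isthmus, had levels of 0.61, 0.66 and 0.95. Unlike Fgf17 and Fgf18, Fgf8 was close in both E10.5 pools (-0.05), and both lay below E9.5, by -0.29 for the MafG-intact and -0.34 for the triple null pool.

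The Fgf8 probe was printed 10 times on each array, which shows the spread between spots within an array. Its spots had a mean of 0.61 ± 0.03 (SD of 10 spots) in the triple null pool, 0.66 ± 0.04 in the MafG-intact E10.5 pool and 0.95 ± 0.10 at E9.5. Spots of the E10.5 pools overlapped each other, from 0.54 to 0.64 and from 0.58 to 0.71, and none reached the lowest E9.5 spot at 0.80. For Fgf10, spots ran from -1.67 to -1.30 in the triple null pool and from -1.64 to -1.47 in the MafG-intact E10.5 pool, and the E9.5 spots lay just below both, from -1.85 to -1.69. The spots of an array share 1 RNA pool and 1 hybridization, so this separation says nothing about the spread between embryos or between repeated arrays.

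**Figure D3:**
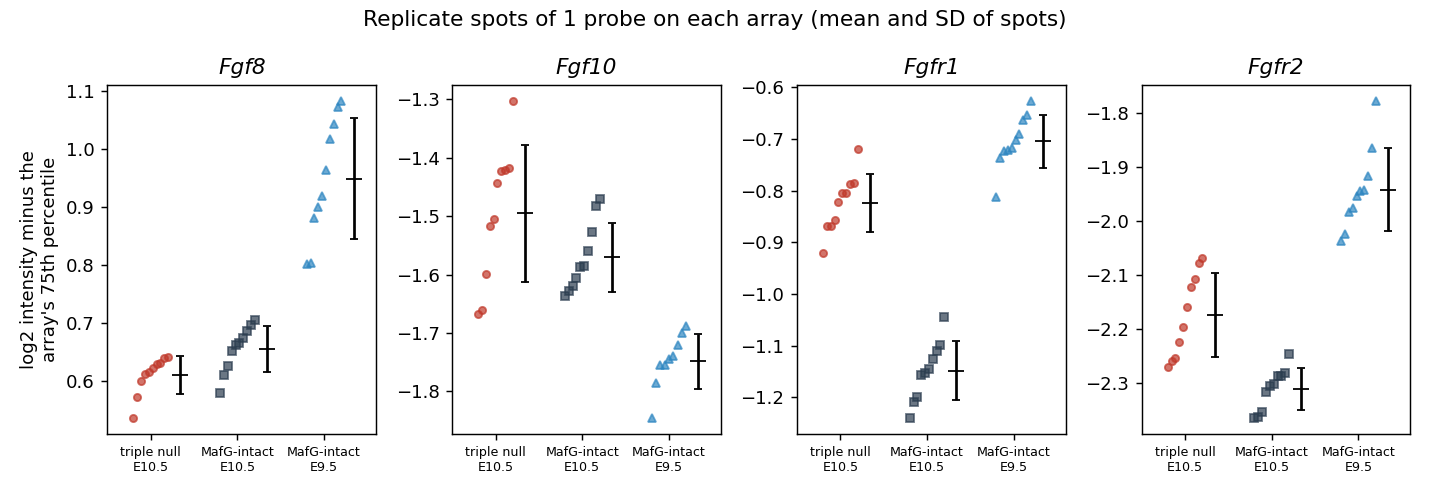
Replicate spots of 1 probe each for Fgf8, Fgf10, Fgfr1 and Fgfr2 on the 3 arrays (log2 intensity minus the array's 75th percentile), with the mean and SD of the 9 or 10 spots. The MafG-intact E10.5 spots of Fgfr1 (-1.24 to -1.05) lie apart from the other arrays, while Fgf8 separates E9.5 from the E10.5 pools.

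In the FGF9 subfamily, Fgf9, needed for lung, gonad and skeletal growth, had levels of -1.56, -1.99 and -1.67. It was 1.35-fold higher in the triple null than in the MafG-intact pool at E10.5, which was 1.25-fold below E9.5. Fgf20, an inner ear and kidney ligand, was above background in the triple null (-5.82) and E9.5 pools (-5.80) and not in the MafG-intact E10.5 pool, where its measured value was -6.89. Against that pool, it was higher by at least 2.09-fold in the triple null and by at least 2.12-fold at E9.5. Both bounds rest on 1 spot per array close to the background, and with normexp they were 0.44 and -0.43 on the log2 scale. Fgf16 was not above background on any array.

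Of the endocrine group, whose adult members act as hormones, Fgf15 is expressed in the embryonic brain and branchial region. The levels of Fgf15 were -0.36, -0.81 and -0.26. Its MafG-intact E10.5 level was 1.37-fold below the triple null and 1.46-fold below E9.5. Fgf21 and Fgf23, hormones of liver and bone, were not above background, and neither were Fgf1 and Fgf2, whose proteins leave the cell without a signal peptide.

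Fgf11 to Fgf14 encode intracellular proteins that bind voltage-gated sodium channels in neurons and do not signal through the receptors in the usual way. Fgf12 had levels of -5.16, -4.35 and -5.17 and was high in the MafG-intact E10.5 pool alone, 1.76-fold above the triple null and 1.77-fold above E9.5. Both of its probes lay on that side, with differences of -1.02 and -0.62 between the genotypes at E10.5 and of 0.86 and 0.79 between the MafG-intact days. With normexp the Fgf12 differences were -0.16 and 0.18.

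The means of Fgf11, Fgf13 and Fgf14 were lowest in the triple null pool and highest at E9.5, by small differences on which probes disagreed in part. Fgf14 was 1.54-fold lower in the triple null than in the E9.5 pool, as far as 1.42% of genes, from levels of -5.71, -5.42 and -5.08; its 2 probes above background gave -0.90 and -0.35 in this pair, and with normexp the mean was -0.17. Between the genotypes at E10.5 these probes had opposite signs (-0.73 and 0.15), and the mean, -0.29, turned to 0.21 with normexp. The 3 probes of Fgf13 also disagreed, and its mean differences of -0.05, -0.14 and -0.19 in the 3 comparisons each turned in sign with another setting. Fgf11 was above background in the MafG-intact pools only, at -6.44 and -6.28, and its bounds were at most 1.30-fold.

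The promoter sequences below are the 250 bases before the annotated start, from RefSeq on build GRCm38.p6, 5′ to 3′ on the gene's strand. They are shown for the ligands past 2-fold in a comparison of arrays that both gave signal (Fgf3 and Fgf5). Windows of Fgf12, Fgf9 and Fgfr3 follow, the latter 2 with a match to the core of the element that CNC and small Maf dimers bind. Fgf12 and Fgfr3 have several windows, and the printed window is the only one with a match. Fgf2, whose window also holds that core, was not above background and is not shown. Binding was not measured. Capitals mark a match to that antioxidant response element core, TGACNNNGC, or to the AP-1 core, TGANTCA, searched on both strands.
Fgf3, chr7:144838362-144838611 (+): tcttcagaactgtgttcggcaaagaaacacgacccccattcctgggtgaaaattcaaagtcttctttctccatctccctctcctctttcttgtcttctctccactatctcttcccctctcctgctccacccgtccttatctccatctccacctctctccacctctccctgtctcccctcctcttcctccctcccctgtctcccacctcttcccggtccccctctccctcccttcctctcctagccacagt
Fgf5, chr5:98253934-98254183 (+): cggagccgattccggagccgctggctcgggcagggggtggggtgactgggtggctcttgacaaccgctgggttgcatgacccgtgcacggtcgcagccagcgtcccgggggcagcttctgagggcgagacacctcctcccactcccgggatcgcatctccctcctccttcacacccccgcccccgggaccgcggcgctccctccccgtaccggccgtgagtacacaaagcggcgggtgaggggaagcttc
Fgf12, chr16:28446076-28446325 (-): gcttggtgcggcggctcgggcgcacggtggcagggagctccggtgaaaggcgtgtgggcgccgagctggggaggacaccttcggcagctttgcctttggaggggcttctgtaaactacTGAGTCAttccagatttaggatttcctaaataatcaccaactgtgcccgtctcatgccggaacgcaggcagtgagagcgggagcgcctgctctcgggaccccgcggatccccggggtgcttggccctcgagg
Fgf9, chr14:58072436-58072685 (+): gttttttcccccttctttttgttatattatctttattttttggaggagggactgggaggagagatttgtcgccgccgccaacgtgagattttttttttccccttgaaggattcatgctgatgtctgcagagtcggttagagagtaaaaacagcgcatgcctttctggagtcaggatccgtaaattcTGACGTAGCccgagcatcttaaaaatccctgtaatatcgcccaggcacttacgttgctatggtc
Fgfr3, chr5:33721474-33721723 (+): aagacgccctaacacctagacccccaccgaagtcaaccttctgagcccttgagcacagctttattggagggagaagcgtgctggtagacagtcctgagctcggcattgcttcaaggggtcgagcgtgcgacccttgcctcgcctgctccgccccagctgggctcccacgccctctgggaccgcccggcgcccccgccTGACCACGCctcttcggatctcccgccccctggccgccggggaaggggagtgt

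Of 26 FGF pathway genes with a window in the table, Fgf2, Fgf9 and Fgfr3 held the TGACNNNGC core, beside 11.5% of all 27025 genes, and Fgf12 and Fgf13 held the AP-1 core, beside 7.82%. The ETS motif CCGGAAGT was in none of the 26, beside 3.23% of all genes, and its core GGAAGT, which the longer motif contains, was in those of Etv5, Fgf13 and Spred2, beside 22.2%. Counted from the start site, the first base of the TGACNNNGC core lies at -64 in Fgf9 and at -53 in 1 window of Fgfr3. That of the AP-1 core lies at -132 in 1 window of Fgf12. The Fgf3 window has neither core and is 79.2% C or T, a share that 0.0761% of all windows reach. The Fgf5 window, at 52.4% C or T, has neither core as well. Other windows of FGF pathway genes were also rich in C or T. Among them were Fgf14 (65.2%, reached by 1.52% of all windows), Fgf10 (63.2%, 2.54%), and Dusp6 and Fgf22 (62%, 3.41%). The C or T share was not among the planned motif searches. Fgf9 and Fgfr3 lay on opposite sides of 0: between the genotypes at E10.5 their differences were 0.43 and -0.14.

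The receptors lay close together across pools. Fgfr1, the receptor of mesoderm and neural tube, had levels of -1.34, -1.71 and -1.25, lowest in the MafG-intact E10.5 pool. All 4 of its probes were on that side, from 0.31 to 0.49 between the genotypes at E10.5 and from -0.48 to -0.44 between the MafG-intact days. In the probe printed 10 times, spots had means of -0.82 ± 0.06, -1.15 ± 0.06 and -0.70 ± 0.05 (SD of 10 spots), and those of the MafG-intact E10.5 pool overlapped no other array. Fgfr4, a receptor of somites and endoderm, had levels of -1.08, -1.50 and -1.02. It was 1.34-fold higher in the triple null than in the MafG-intact pool at E10.5, and in the latter 1.40-fold lower than at E9.5.

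Fgfr2, the receptor of limb ectoderm and other epithelia, had levels of -3.31, -3.32 and -3.18, and its 2 probes disagreed in sign in the first and second comparison. Its probe printed 10 times gave -2.17 ± 0.08, -2.31 ± 0.04 and -1.94 ± 0.08, with E9.5 spots above both E10.5 pools, whose spots overlapped. Fgfr3, a receptor of cartilage and the nervous system whose promoter is shown above, had levels of -1.19, -1.04 and -1.13; the difference of 0.09 between the MafG-intact days turned to -0.02 with normexp. Against E9.5, each of the 4 receptors in the triple null pool lay within 0.14.

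Among Dusp6, Etv4, Etv5 and the Spry and Spred genes, which FGF signalling turns on or which restrain it, Spry3 was the 1 past 1.5-fold in a comparison. Dusp6, the ERK phosphatase gene often used as a readout of FGF signalling, had levels of 4.34, 4.52 and 4.51. It was 1.13-fold lower in the triple null than in either MafG-intact pool. Etv4 had levels of -1.44, -1.67 and -1.89, and was 1.37-fold higher in the triple null than at E9.5, as far as 2.46% of genes. Etv5, its close relative, had levels of -3.13, -3.39 and -2.99, so the 2 ETS factor genes did not share an order: Etv4 was highest in the triple null pool and Etv5 at E9.5.

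The Sprouty proteins block the pathway between receptor and RAS. Spry1 had levels of 2.13, 2.06 and 2.22, and Spry2 of -4.92, -4.99 and -4.77, which spanned at most 1.12-fold and 1.16-fold over the pools. Spry3 differed from them, at -4.64, -3.91 and -4.40. It was high in the MafG-intact E10.5 pool, 1.66-fold above the triple null and 1.41-fold above E9.5; with normexp these differences were -0.19 and 0.17. Spry3 lies on chromosome X in the reference table, as do Fgf13 and Fgf16, and the MafG-intact E10.5 array is the one with Xist signal; the part of this in the result was not tested. Spry4 was not above background.

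The Spred proteins bind RAS and hold back RAF activation. Spred1 had levels of -3.36, -3.43 and -3.04, and both probes placed E9.5 highest, 1.31-fold above the MafG-intact E10.5 pool and 1.25-fold above the triple null. Spred2, at -3.66, -3.75 and -3.61, spanned 1.10-fold. Spred3, at -4.53, -4.77 and -4.80, was 1.21-fold higher in the triple null than at E9.5, and its difference between the MafG-intact days turned in sign with normexp and quantile normalization.

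The rest of the pathway was read from 4 further lists. Over all genes, 5.45%, 5.19% and 0.783% were 2-fold apart either way in the 3 comparisons. In lists of this size, 1 such gene is near the first and second share. Of 21 signal transduction genes, from the receptor adaptors to ERK and the RSK kinases below it, none was 2-fold apart in any comparison, and the medians were 0.14, -0.18 and -0.04 in the 3 comparisons. The farthest was Rps6ka3, a kinase below ERK, at 0.43 and -0.67 in the first and second; the adaptor gene Frs3 was at -0.42 in the first.

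Among co-receptors, decoy receptor and FGF-binding proteins, 1 of 17 genes was 2-fold or more apart at E10.5 and none of 16 in either other pair. This was Fgfbp1, a secreted carrier that frees FGFs from the matrix, with levels of -3.52, -4.87 and -4.04, 2.54-fold higher in the triple null than in the MafG-intact pool at E10.5. None of 17 heparan sulfate synthesis genes was 2-fold apart at E10.5, nor any of 16 in the other pairs, and the medians were 0.01, 0.04 and -0.03; the farthest was the sulfotransferase gene Hs6st2, at 0.44 and -0.51 in the first and second.

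Other ERK-induced and feedback genes had 1 of 14 at least 2-fold apart in the first and the second comparison and none in the third. It was Egr2, the zinc finger gene of hindbrain rhombomeres and neural crest, with levels of -1.78, -3.64 and -2.21. Egr2 was 3.63-fold higher in the triple null than in the MafG-intact pool at E10.5 and 2.70-fold lower in the latter than at E9.5. Medians of this list were -0.00056, -0.19 and -0.18.

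Marker genes of tissues that use FGFs were read beside these results. Of 12 tail bud and presomitic mesoderm markers above background in both E10.5 pools, 6 were higher in the triple null by 2-fold or more. This stood beside 0.982% of all genes, and none was lower by 2-fold or more, beside 4.47%. Between the MafG-intact pools 6 of 12 were lower at E10.5 by 2-fold or more, beside 1.07%. Msgn1 (2.32 and -2.10), Tbx6 (1.68 and -1.84), T (1.37 and -1.46), Nkx1-2 (1.63 and -1.46), Cdx2 (3.27 and -2.98) and Cdx4 (3.42 and -3.58) gave these counts. Dll3 lay the other way (-0.76 and 0.68), as did Lfng between the MafG-intact days (0.43) and Cyp26a1 between the genotypes (-0.15). Cdx1 and Hes7 were not above background in the MafG-intact E10.5 pool alone. The median was 1.02 and -1.22 in those comparisons and -0.05 between the triple null and E9.5. In the latter pair none of 14 genes was 2-fold apart, beside 0.783% of all genes. The summed linear level of the 14 genes, in units of the array's 75th percentile, was 7.78, 6.66 and 8.60. Fgf3, Fgf17 and Fgf18 were likewise lowest in the MafG-intact E10.5 pool, and Fgf8 was not. Many other FGF pathway genes were also lowest there, so this order is not particular to those ligands. Among them were Fgf7, Fgf9, Fgf15, Fgfr1, Fgfr4, Spry1, Spred2 and Etv5. The part of tail bud content in these levels was not tested.

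**Figure D4:**
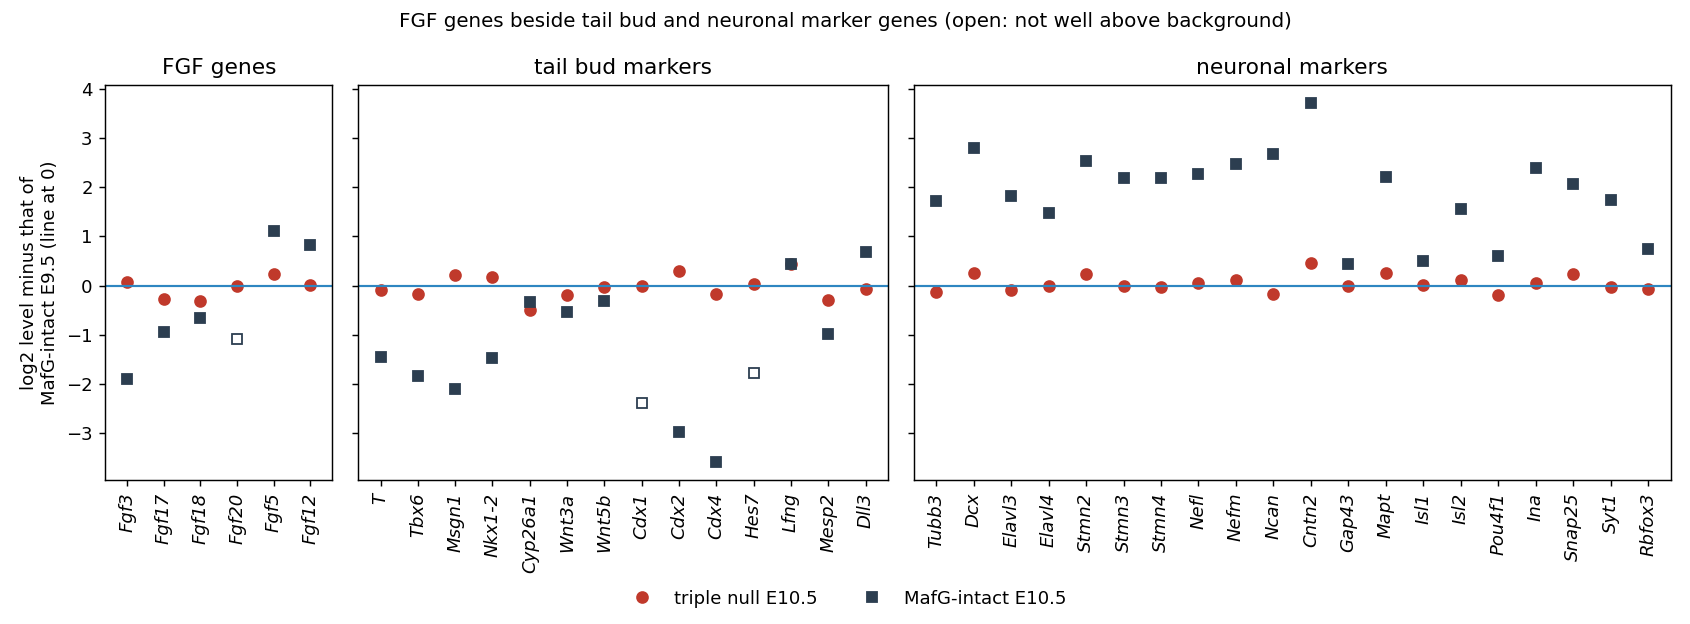
Level in the triple null E10.5 (circles) and MafG-intact E10.5 (squares) pools minus the level in the MafG-intact E9.5 pool, for 6 FGF genes, 14 tail bud markers and 20 neuronal markers (open where not above background). The triple null points lie near 0 throughout; squares lie below 0 for Fgf3 (-1.90) and most tail bud markers and above 0 for Fgf5 (1.11), Fgf12 (0.82) and the neuronal markers.

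Neuronal differentiation markers, a list also chosen with earlier results of these data known, lay the opposite way. Of 20 such genes, 16 were lower by 2-fold or more in the triple null than in the MafG-intact pool at E10.5, with a median of -1.93. Between the MafG-intact days 16 were higher at E10.5 by 2-fold or more, beside 4.12%, with a median of 2.12. Between the triple null and E9.5 none was 2-fold apart, beside 0.783%, with a median of 0.0046. All 20 were above background on every array, and their summed level was 14.8, 58.0 and 15.0. Fgf12 and Fgf5 were highest in the same MafG-intact E10.5 pool, and so were Spry3 and, by small differences, Fgfr3 and Dusp6. The means of Fgf11, Fgf13 and Fgf14 were not highest there. The muscle markers Myog, Mylpf, Chrna1 and Tnnc2 were also highest in that pool, so this order is not particular to neuronal genes. Whether neuron content has a part in the Fgf12 and Fgf5 levels was not tested.

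Between the E10.5 pools, Lhx9 was the 1 of 14 limb genes 2-fold or more lower in the triple null, beside 4.47% of all genes. The medians were -0.12, -0.14 and -0.09 in the 3 comparisons, with summed levels of 16.5, 22.8 and 19.8. Between the MafG-intact days Lhx9 (1.26) and Trp63 (1.24) were higher at E10.5 by 2-fold or more, of 13, beside 4.12% of all genes. Fgf8 and Fgf10, which the limb bud uses, differed by 1.03-fold and 1.05-fold between the E10.5 pools. Of 7 border genes above background in both E10.5 pools, Pax8 was the 1 gene 2-fold apart (1.28), beside 5.45% of all genes either way. Between the MafG-intact days it was again the 1 gene, of 8 (-1.04), beside 5.19%. En1 was above background in the MafG-intact pools only, and lay the other way from Pax8 between the genotypes at E10.5. It was lower in the triple null by at least 1.59-fold. Pax5 was not above background on any array, and summed levels of the border genes were 4.11, 4.26 and 5.27. No pharyngeal marker of 9 was 2-fold apart in any comparison, beside 5.45%, 5.19% and 0.783% of all genes. Heart markers had a median of 0.72 at E10.5, with 4 of 10 higher in the triple null by 2-fold or more, and muscle and somite markers one of -0.36, with 4 of 10 lower by that much. Between the MafG-intact days none of the 10 heart markers was 2-fold apart, and 4 of 10 muscle and somite markers were higher at E10.5.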

How the data were processed

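Members and gene lists were chosen with earlier results of these data known. The deposited values are the authors' scanner intensity (1 colour, Cy3), background-subtracted in Agilent Feature Extraction (version 9.5.3.1, protocol GE1-v5_95_Feb07), per the file headers. The array design (014868) is annotated on build mm7. The value table the authors deposited holds the same intensity, rounded (largest difference 0.497%), linear and not centred, with medians of 84.0 (triple null), 115 (MafG-intact E10.5) and 83.4 (E9.5).

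Of 45018 spots, 43379 were non-control; log2 intensity minus the array's 75th percentile (1078, 1420 and 1064) was used. Outlier spots (59, 52 and 83) were left out; none was saturated. Values were averaged over the spots of a probe, then over probes above background on at least 1 array. Of 41170 probes, 22950 had 1 symbol through RefSeq accessions of GRCm38.p6, which gave 13184 genes above background. A probe counted as above background where over 0.5 of its spots were. With 1 array per group no p-value is given; genes above background on both arrays were counted from 2-fold. With signal on 1 array only, the bound is the gene's level there over the higher of its own dim value and the lowest level above background on the dim array. Bases of promoters came from RefSeq windows.

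The rule for named genes took every member and, per list, genes 2-fold apart or, if none, the 2 farthest. Some list genes it takes are not printed. Some list genes outside it are named because they lay the other way or lacked signal on an array. The steps were tested on simulated data. Alternatives were normexp correction (offset 50, on median spot intensity), quantile normalization, other scalings, dim-probe filters, the brightest probe, 3-fold and 1.5-fold thresholds and the value table; scaling on 10 spike-in probes and the 1.5-fold threshold with normexp were chosen after seeing the data. Python 3.11.15, pandas 2.3.3, numpy 2.4.6, matplotlib 3.10.9, R 4.3.3 and limma 3.58.1 were used.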

Additional observations from a re-analysis of the deposited data

How the results depend on the processing

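With no replicates, every value rests on 1 pool, so 3 arrays set the precision. Of 637 member values under the alternatives, 607 moved by less than the spot SD at their level (times the square root of 2). The other 30 moved by more, 22 of these with normexp, 7 with the brightest probe and 1 with quantile normalization. The filters on dim probes, the other scalings and the deposited value table moved none by more. The deposited table holds the same intensity, rounded, so its values could hardly move. Values that a setting dropped, or turned from a difference into a bound or back, are not among the 637. Values of Fgf11 and Fgf20 were left out in this way under the filters on dim probes. None that was at least 2-fold apart changed sign, and 19 values changed sign, all of differences under 0.58 (log2). The count of FGF pathway genes 2-fold apart between genotypes at E10.5 was 1 in the report, 3 with no filter on dim probes (Fgf20 and Fgf22 join), 2 with the brightest probe (Fgf12 joins) and 5 at 1.5-fold. Between the MafG-intact days it was 2, but 1 with normexp (Fgf3 alone), 3 with quantile normalization (Fgf17 joins), 4 with no filter, 1 at 3-fold and 5 at 1.5-fold. Between triple null and E9.5 it was 0, but 1 with no filter (Fgf16, below background) and 1 at 1.5-fold (Fgf14). Over all genes, normexp lowered the count between genotypes at E10.5 from 123 higher and 560 lower to 54 and 213, between the MafG-intact days from 516 and 134 to 200 and 55, and between triple null and E9.5 from 32 and 66 to 10 and 17; without the filter on dim probes it was 362 and 880, 853 and 374, and 237 and 280. No paired analysis was possible because each group is 1 array.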
